A study of Mus musculus with 12 samples.

Results

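Connexins are the membrane proteins from which gap junctions are built. The genes followed here are Gja1, Gjb1, Gjb2, Gjb5, Gjb6 and Gjc1, chosen by symbol in the table of read counts, and they are 6 of its 25210 genes. They were read in primary mammary epithelial organoids from virgin female FVB/N mice of 8 to 11 weeks of age, grown for 7 days in Matrigel and minimal medium. The groups compared, 4 in number, were the vehicle DMSO and CHIR99021 at 1 µM, 1.5 µM and 3 µM. The compound blocks GSK3 and was applied by the submitters to turn on WNT signalling, in which stabilised β-catenin acts on target genes. By the series' design text, each of 3 animals gave 1 culture that received all 4 treatments, so there were 3 libraries in a group and 12 in all. The titles also tag cultures 1, 2 and 3 as med, min and max, and what the tags stand for is not given in the sources used here. No group carried a transgene or a deletion according to the labels, and the comparisons against DMSO share the same 3 DMSO libraries.

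A connexin crosses the membrane several times, a ring of connexins forms a hemichannel, and hemichannels of neighbouring cells dock into a channel that passes ions and small metabolites. The mixture of connexins in a cell sets which molecules pass and which neighbouring cells can couple. In the mammary gland, Gja1 (protein Cx43) is known from the myoepithelium, and Gjb2 (Cx26) and Gjb1 (Cx32) from the luminal cells, where they increase in pregnancy and lactation. Gjb5 (Cx31.1) and Gjb6 (Cx30) are known from the stratified epidermis, and Gjb6 also from the lactating gland. Gja1 and Gjb2 are themselves found in epidermis, so the division into mammary and epidermal members used here names the better known site of each gene and is not exclusive. Gjc1 (Cx45) is known from smooth muscle, the cardiac conduction system and vessels, and is kept apart from both classes.

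In the GRCm38 build, Gja1 lies on chromosome 10 from 56377300 to 56390419 on the plus strand and Gjb1 on chromosome X from 101376378 to 101385629 on the plus strand. Gjc1 lies on chromosome 11 from 102799579 to 102819700 on the minus strand. Gjb2, at 57098600 to 57104702, and Gjb6, at 57123303 to 57133611, both lie on the minus strand of chromosome 14 with 18.6 kb between them. Gjb5 lies on the minus strand of chromosome 4 from 127354809 to 127358181. None of the 6 overlaps another gene of GENCODE M21, so none shares exons with another annotated gene.

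The 250 bases before the RefSeq transcription start are shown for the 4 members called higher from 1.5 µM on, because these windows are the annotated sequence nearest to where transcription of each gene begins. They are RefSeq sequence of the GRCm38.p6 build, from the reference strain and not from FVB/N, and are written 5′ to 3′ on the strand of the gene. Capitals mark letters of 4 motifs searched on both strands, which were CTTTGA (the core bound by TCF/LEF, the partners of β-catenin), TGANTCA (AP-1), GCCNNNGGC (AP-2) and TATAAA (the TATA box). The windows are chr10:56377050-56377299 for Gja1 (plus strand), chr14:57104703-57104952 for Gjb2, chr4:127358165-127358414 for Gjb5 and chr14:57133612-57133861 for Gjb6 (all minus strand).
Gja1: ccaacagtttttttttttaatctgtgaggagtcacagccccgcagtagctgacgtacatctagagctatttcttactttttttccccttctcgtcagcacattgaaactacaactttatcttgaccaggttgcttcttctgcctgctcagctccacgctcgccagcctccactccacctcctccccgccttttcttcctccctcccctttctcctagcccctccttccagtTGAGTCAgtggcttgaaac
Gjb2: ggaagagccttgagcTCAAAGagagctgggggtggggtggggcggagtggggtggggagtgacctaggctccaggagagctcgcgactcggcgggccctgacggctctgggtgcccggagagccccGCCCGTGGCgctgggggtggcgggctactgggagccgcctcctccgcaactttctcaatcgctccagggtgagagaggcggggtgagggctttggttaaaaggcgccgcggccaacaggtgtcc
Gjb5: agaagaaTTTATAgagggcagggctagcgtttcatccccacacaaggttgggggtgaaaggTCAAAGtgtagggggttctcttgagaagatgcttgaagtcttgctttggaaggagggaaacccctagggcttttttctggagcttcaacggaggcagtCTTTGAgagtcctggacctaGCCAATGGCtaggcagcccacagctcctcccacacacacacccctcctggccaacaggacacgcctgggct
Gjb6: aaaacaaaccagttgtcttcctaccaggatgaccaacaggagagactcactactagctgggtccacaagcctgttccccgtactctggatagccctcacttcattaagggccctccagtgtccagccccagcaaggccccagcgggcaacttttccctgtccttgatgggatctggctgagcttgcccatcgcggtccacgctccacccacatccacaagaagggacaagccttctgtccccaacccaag

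The Gjb2 window held CTTTGA letters 1 time, on the opposite strand with the first base 235 bases before the start. The Gjb5 window held them 2 times, at 189 bases (opposite strand) and 91 bases (strand of the gene) before the start. These letters occur in 13.8% of the 32851 RefSeq promoter windows of this length. AP-2 letters stood 124 bases before the start of Gjb2, where they overlap GGGCGG letters (GC box) on the opposite strand, and 71 bases before the start of Gjb5, against 13.7% of all windows. Gja1 held AP-1 letters at 19 bases before its start, which 6.75% of windows hold. Gjb5 held TATAAA letters at 243 bases on the opposite strand, and 12.4% of windows hold them on either strand. The Gjb6 window held none of the 4 motifs. CCACCC letters, searched but not marked, stood 47 bases before the start of Gjb6 and 4 times on the opposite strand in the Gjb2 window, against 28.1% of all windows. The Gja1 and Gjb5 windows did not hold them. A match of letters is a description of the sequence only. RefSeq windows were found for 5 of the 6 members. Gjb1 has 4 starts there. Of their windows, 1 held CTTTGA letters 222 bases before its start, 1 held AP-2 letters at 81 bases and 1 held TATAAA letters at 29 bases. Gjc1 was not matched.

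The libraries held 10.1 to 24.5 M counted reads (M, mega), and 15316 genes passed the filter on low counts and were tested, all 6 members among them. Levels are given as CPM, the count relative to 1 M reads after TMM scaling of the library size, and levels are compared between genes only as CPM per kilobase of the principal transcript. Epithelial markers were present in every group, with the luminal keratin Krt8 at 825 ± 242 CPM and the basal keratin Krt14 at 1091 ± 398 CPM (SD, n = 3) in DMSO. One library stood apart, that of culture 3 at 3 µM. The summed level of 13 squamous markers was 10418 CPM there, against 35435 and 33040 CPM in cultures 1 and 2, and that of 6 proliferation markers was 536 CPM, against 1156 and 1378 CPM. The squamous difference was not confined to this library. Culture 3 had 372 CPM at 1 µM, against 659 and 805 CPM, and 2768 CPM at 1.5 µM, against 5707 and 6025 CPM. In DMSO it was not the lowest. The log2 fold changes of the members at 3 µM, and the shares and calls that moved, are therefore also given without the library of culture 3 at 3 µM. Those fits kept the libraries of culture 3 at the other doses. The groups they compare are thus not matched by culture, and part of a shift in them can come from that.

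Of the 6 connexins, 5 were higher at 3 µM CHIR99021 than in DMSO: the mammary members Gja1, Gjb1 and Gjb2 and the epidermal members Gjb5 and Gjb6. The rise was 4.41-fold for the abundant Gja1, 2.82-fold for the scarce Gjb1 and 46.1-fold for both Gjb2 and Gjb5. Gjb6 rose most, from 1 to 3 reads in each DMSO library to 311 to 782 reads at 3 µM. Gjc1 had the opposite sign in every culture. The median log2 fold change of the members was 3.83, against -0.03 over all tested genes. For scale, 29.9% of all tested genes were called higher at 3 µM and 27.7% lower (edgeR quasi-likelihood test, Benjamini-Hochberg adjusted p under 0.05). For the 5 members called higher, every library at 3 µM was above every DMSO library, which held for 30.9% of all tested genes. A rise at this dose is therefore common among the genes tested, and the members differed in its size.

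**Figure D1:**
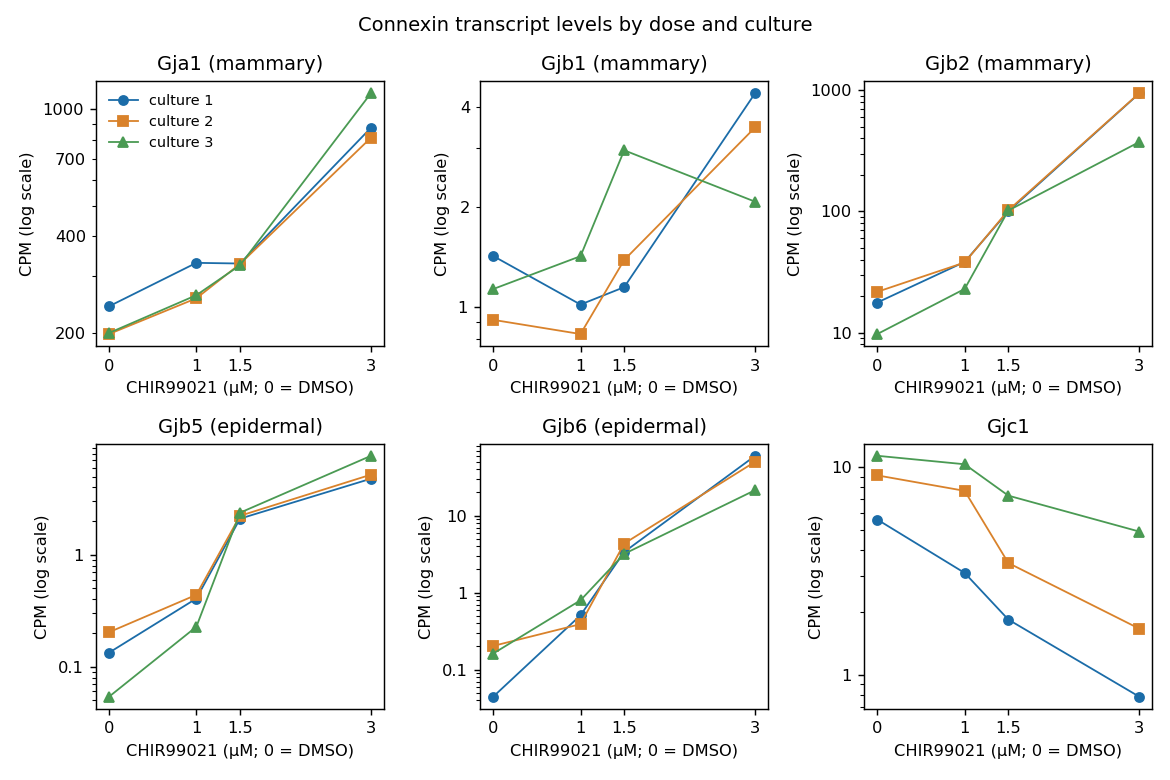
Level of each member (CPM, log axis) against the CHIR99021 dose in µM, with 1 line for each of the 3 cultures. Gjb2, Gjb5 and Gjb6 climb at every step in all 3 cultures, Gjc1 falls at every step, and culture 3 lies below the other cultures for Gjb2 and Gjb6 at 3 µM.

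Gja1 was the most abundant connexin of the vehicle cultures. In cultures 1, 2 and 3 it stood at 242, 198 and 199 CPM with the vehicle. With 1 µM CHIR99021 the levels were 331, 256 and 262 CPM, with 1.5 µM they were 329, 328 and 325 CPM, and with 3 µM they were 877, 816 and 1125 CPM. All libraries at 3 µM were above all others, the 1.5 µM libraries were nearly equal, and those of 1 µM and 1.5 µM overlapped. The log2 fold change against DMSO was 0.41 ± 0.14 (SE) at 1 µM, with an adjusted p of 0.304 by edgeR. It was 0.62 ± 0.14 at 1.5 µM (edgeR adjusted p = 0.0110) and 2.14 ± 0.15 at 3 µM (edgeR adjusted p = 3.72e-06). The call at 1.5 µM was lost without DMSO replicate 2 (adjusted p = 0.0591) or DMSO replicate 3 (adjusted p = 0.0516). From 1.5 to 3 µM Gja1 rose by 1.52 ± 0.15 (adjusted p = 0.000186). Without the library of culture 3 at 3 µM, the change at 3 µM was 1.97. That library had the highest Gja1 level of all 12 libraries and the lowest Gjb2 level of the 3 libraries at 3 µM.

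Gjb2 was a minor transcript in DMSO and, per length, had a mean at 3 µM that lay within the spread of Gja1 when the principal transcript was the length. It was at 17.7, 21.7 and 9.75 CPM in DMSO and at 38.3, 37.9 and 23.0 CPM at 1 µM. At 1.5 µM the 3 cultures had 100, 102 and 102 CPM, and at 3 µM they had 940, 945 and 374 CPM. No 2 neighbouring doses overlapped, and culture 3 was lowest in DMSO, at 1 µM and at 3 µM but not at 1.5 µM. The log2 fold change was 1.02 ± 0.38 at 1 µM (edgeR adjusted p = 0.334), 2.63 ± 0.40 at 1.5 µM (0.00143) and 5.53 ± 0.45 at 3 µM (8.44e-06). Without the library of culture 3 it was 5.83 at 3 µM. With the animal as a block, Gjb2 also passed at 1 µM (log2 fold change 1.04, adjusted p = 0.0472).

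Gjb1 was scarce in all groups, with 9 to 56 reads in a library. Cultures 1, 2 and 3 had 1.42, 0.914 and 1.13 CPM with the vehicle and 1.02, 0.828 and 1.42 CPM with 1 µM. With 1.5 µM they had 1.15, 1.38 and 2.96 CPM, and with 3 µM 4.39, 3.47 and 2.07 CPM. The 3 libraries at 3 µM were above all in DMSO, but culture 3 was higher at 1.5 µM than at 3 µM. The log2 fold change was -0.11 ± 0.43 at 1 µM (edgeR adjusted p = 0.961), 0.64 ± 0.43 at 1.5 µM (0.290) and 1.49 ± 0.43 at 3 µM (0.0130). Without 3 µM replicate 1 the change at 3 µM was 1.22 and the call was lost (adjusted p = 0.0546), and without 3 µM replicate 3 it was 1.72 (0.00764). Its rise at 3 µM was the smallest of the 3 mammary members.

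Gjb5, which encodes a connexin of the spinous and granular layers of the epidermis, was close to the limit of detection in the vehicle. It had 3, 2 and 1 reads in the DMSO libraries of cultures 1, 2 and 3, which is 0.133, 0.203 and 0.0539 CPM. The levels were 0.406, 0.439 and 0.227 CPM at 1 µM, 2.10, 2.23 and 2.38 CPM at 1.5 µM, and 4.78, 5.20 and 7.66 CPM at 3 µM. Every dose lay above the one before it in every culture, and culture 3 went from the lowest of the 3 in DMSO to the highest at 3 µM. Summed over the cultures, the ratio to DMSO was 3.08 (95% counting interval 1.20 to 9.33) at 1 µM, 19.0 (8.49 to 52.7) at 1.5 µM and 50.1 (22.7 to 138) at 3 µM. The intervals cover counting error only. Gjb5 was called higher at 1.5 µM (log2 fold change 4.13 ± 0.43, edgeR adjusted p = 0.000284) and at 3 µM (5.53 ± 0.43, 6.61e-06), and not at 1 µM (1.52 ± 0.46, 0.229). Without the library of culture 3, the change at 3 µM was 5.27.

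Gjb6 had the largest relative rise of the members. Its DMSO libraries held 1, 2 and 3 reads, or 0.0444, 0.203 and 0.162 CPM. It was at 0.508, 0.390 and 0.795 CPM at 1 µM, at 3.37, 4.34 and 3.19 CPM at 1.5 µM, and at 59.9, 50.2 and 21.5 CPM at 3 µM. The groups did not overlap at any step, and culture 3 was the lowest at 3 µM, as it was for Gjb2. The ratio to DMSO was 4.70 (1.94 to 13.7) at 1 µM, 31.8 (14.4 to 87.6) at 1.5 µM and 368 (169 to 1004) at 3 µM, with 95% counting intervals. The log2 fold changes were 2.14 ± 0.63 (edgeR adjusted p = 0.213), 4.83 ± 0.56 (0.000484) and 8.42 ± 0.58 (3.60e-06), and the last was 8.73 without the library of culture 3. For both epidermal members the fitted fold rests on 6 reads over the DMSO group.

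Gjc1 was lower than in DMSO at each CHIR99021 dose in every culture. Its levels in cultures 1, 2 and 3 were 5.60, 9.14 and 11.4 CPM with the vehicle and 3.10, 7.70 and 10.3 CPM with 1 µM. They were 1.85, 3.46 and 7.30 CPM with 1.5 µM and 0.784, 1.67 and 4.90 CPM with 3 µM. Within every culture each dose was below the one before, while the cultures kept the order 1, 2, 3 from low to high in every group. The log2 fold change at 3 µM was -1.82 ± 0.71 and did not pass in the model without an animal term (edgeR adjusted p = 0.0504). With the animal as a block it was -2.05 (edgeR adjusted p = 0.000250), and Gjc1 also passed at 1.5 µM (-1.21, 0.00639) and from 1.5 to 3 µM (-0.83, 0.0464). Without the library of culture 3 at 3 µM the change was -2.82 (edgeR adjusted p = 0.00995), which is over 1.5 times as large in fold. That fit kept the DMSO library of culture 3, the highest of its group for Gjc1. The call was also gained without replicate 1 of DMSO (adjusted p = 0.0488), of 1 µM (0.0441) or of 1.5 µM (0.0460), without 1.5 µM replicate 3 (0.0410), in DESeq2 (0.0143) and with scaling by library size only (0.0368). In 7 of the 12 fits that left out 1 library Gjc1 stayed without a call, with an edgeR adjusted p of up to 0.142. Over the 12 fits its change ranged from -2.82 to -1.42.

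Fibroblast markers were read beside Gjc1. The summed level of 6 of them (Col1a1, Col1a2, Col3a1, Pdgfra, Dcn and Lum) was 1548, 7165 and 20187 CPM in cultures 1, 2 and 3 in DMSO, and 164, 923 and 4484 CPM at 3 µM. This is the same order of cultures as for Gjc1, and none of the markers was at 0 in all libraries of a group. Dcn had the other sign, with a log2 fold change of 0.44 ± 1.72 at 3 µM, and was higher than in DMSO in culture 3 only. At 3 µM edgeR called 0 of the 6, with 0 at an unadjusted p under 0.05, DESeq2 called 1 (Col3a1, lower), and 5 were called lower with the animal as a block. Of 4 vascular smooth muscle or pericyte markers 2 were called lower at 3 µM (3 without the library of culture 3), with a summed level of 343 to 771 CPM in DMSO and 188 to 325 CPM at 3 µM. The part of these cells in the level of Gjc1 was not tested. In bulk libraries fewer cells of a type and less RNA per cell cannot be told apart.

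Squamous markers were higher too at the doses at which members were called higher. All 13 squamous or epidermal markers (such as Ivl, Lor, Krt10 and Sprr1b) were called higher at 1.5 µM and at 3 µM, against 3 of 13 at 1 µM, where the animal block and DESeq2 each called 10. Their sum ranged over 40.9 to 95.9 CPM in DMSO and 372 to 805 CPM with 1 µM. With 1.5 µM it was 2768 to 6025 CPM and with 3 µM 10418 to 35435 CPM. Culture 3 had the lowest sum of the 3 cultures at each CHIR99021 dose. At 3 µM culture 3 also had the lowest levels of Gjb1, Gjb2 and Gjb6, but the highest of Gja1 and Gjb5. None of the 13 markers was at 0 in all libraries of a group. The 6 proliferation markers were all called higher at 1.5 and 3 µM, from sums of 182 to 218 CPM in DMSO to 536 to 1378 CPM at 3 µM. Among 9 basal or myoepithelial markers, 4 were called higher at 3 µM (Krt5, Krt14, Krt17 and Trp63) and the 5 others, of the contractile apparatus and the oxytocin receptor, lower (Acta2, Myh11, Cnn1, Mylk and Oxtr). Their summed level was 2153 to 3472 CPM in DMSO and 16155 to 33977 CPM at 3 µM. Of 6 luminal markers, 3 were called lower at 3 µM (Krt8, Krt18 and Krt19) and 1 higher (Cldn4, and also Cldn3 without the library of culture 3), with a sum of 2399.8 to 3995 CPM in DMSO and 1949 to 2293 CPM at 3 µM. Of 5 hormone-sensing luminal markers 3 were called lower (Esr1, Pgr and Prlr) and 0 higher, with sums of 171 to 281 and 75.0 to 106 CPM. Of 8 alveolar or milk markers 1 was called higher (Ltf) and 1 lower (Lalba), with sums of 801 to 1414 and 1578 to 2420.0 CPM. None of these luminal markers was at 0 in all libraries of a group. The part of a change in cell types in the connexin levels was not tested.

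**Figure D2:**
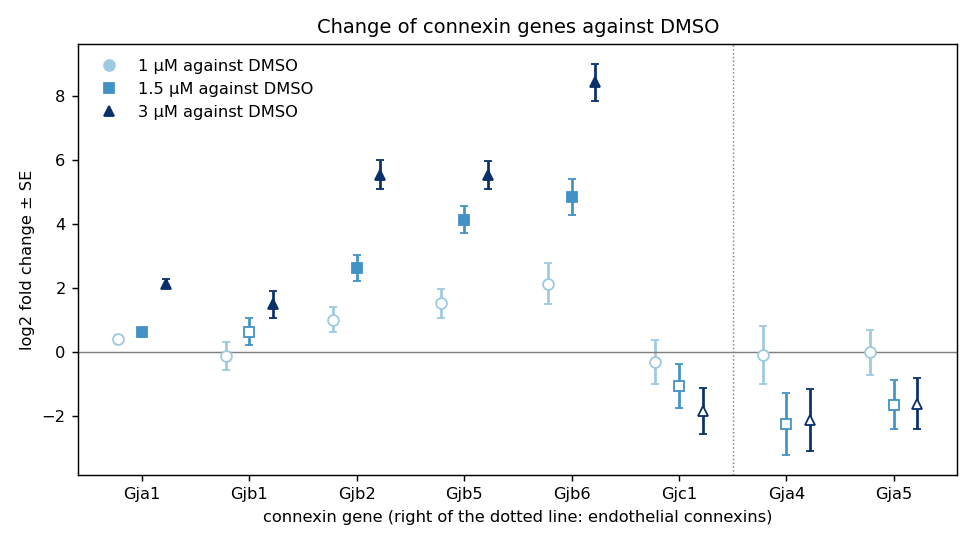
Log2 fold change against DMSO ± SE from the edgeR fit over 12 libraries for the 6 members and the endothelial connexins Gja4 and Gja5, at 1, 1.5 and 3 µM. Filled symbols passed an adjusted p of 0.05, and no gene shown passed at 1 µM, 4 passed at 1.5 µM and 5 at 3 µM, all of them above 0.

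Dose by dose, the lowest dose gave no call in the model without an animal term, and Gjb2 passed with the animal as a block. At 1 µM edgeR without the block called 0 of the 6 members, where it called 0.242% of all tested genes, and DESeq2 called 0. At an unadjusted p under 0.05 there were 4 of 6 members (Gja1, Gjb2, Gjb5 and Gjb6), against 11.7% of all genes. The same 4 were higher in all 3 libraries than in any DMSO library, against 11.2% of all genes. Both counts include Gjb5 and Gjb6, which passed the filter on low counts only through the higher doses. Neither was tested when only DMSO and 1 µM were fitted, so these counts are no support for a rise of the members as a set. At 1.5 µM Gja1, Gjb2, Gjb5 and Gjb6 were called higher, where 15.4% of all genes were. The step from 1 to 1.5 µM, at which 4.43% of all genes were called higher, gave 3 calls among the members. These were Gjb2 (log2 fold change 1.61 ± 0.38, edgeR adjusted p = 0.0369), Gjb5 (2.61 ± 0.37, 0.00653) and Gjb6 (2.69 ± 0.44, 0.0114).

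The calls at this step were not equally firm. That of Gjb2 was lost in 10 of the 12 fits that left out 1 library, all except those without DMSO replicate 3 or 3 µM replicate 3, with an adjusted p of up to 0.121. It was also lost with no filter on low counts (0.0797). The call of Gjb6 was lost without 1 µM replicate 1 (0.0528) or replicate 2 (0.0646), and that of Gjb5 was kept in all 12 fits. The fits that left out 1 library had no animal term. All 3 calls, that of Gjb2 included, were kept with the animal as a block and in DESeq2.

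From 1.5 to 3 µM, where 17.0% of all genes were called higher, the members called were Gja1, Gjb2 (log2 fold change 2.89 ± 0.39, edgeR adjusted p = 0.000872), Gjb5 (1.39 ± 0.33, 0.0109) and Gjb6 (3.59 ± 0.41, 0.000411). Gjb5 had its larger increase from 1 to 1.5 µM and Gja1 from 1.5 to 3 µM, and the difference between those steps was not tested. Without the library of culture 3 at 3 µM, the last step was 1.38 for Gja1, 3.23 for Gjb2, 1.16 for Gjb5 and 3.92 for Gjb6, and all 4 were still called. Gjb2, Gjb5 and Gjb6 rose at each of the 3 steps in all 3 cultures, which 9.48% of tested genes did, and Gjc1 fell at each, which 9.68% did. Gja1 rose at each step in 2 cultures, and in culture 1 its change from 1 to 1.5 µM was -0.01 on the log2 scale.

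A straight line in dose over the 12 libraries gave slopes per µM, in log2, of 2.84 ± 0.19 for Gjb6, 1.90 ± 0.14 for Gjb2, 1.80 ± 0.23 for Gjb5, 0.72 ± 0.06 for Gja1 and 0.54 ± 0.14 for Gjb1. All 5 were called higher, where 30.2% of genes were. The slope of Gjc1 was -0.64 ± 0.22 (edgeR adjusted p = 0.0267), and 28.0% of genes were called lower. The call of Gjc1 was lost without DMSO replicate 3 (0.0631), 3 µM replicate 1 (0.0711) or 3 µM replicate 2 (0.0789).

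The make-up of connexin transcripts shifted along with their sum. Summed over the 6 members, the level was 78.4 ± 7.44 CPM per kb (SD, n = 3) with the vehicle and 107 ± 13.5, 151 ± 1.50 and 635 ± 94.6 CPM per kb with 1, 1.5 and 3 µM. Gja1 made up 85.3% ± 3.03 of this sum with the vehicle and 83.1% ± 2.64, 68.2% ± 1.09 and 48.1% ± 16.5 with rising dose. Gjb2 made up 8.66% ± 3.15, 12.8% ± 2.96, 27.9% ± 0.155 and 47.7% ± 15.8 in the same order. Without the library of culture 3 at 3 µM, the means there were 38.5% for Gja1 and 56.8% for Gjb2. These shares are percentages of a per-length level and depend on the transcript length. With all annotated exons as the length, Gja1 made up 69.1% in DMSO and 24.1% at 3 µM, and Gjb2 22.3% and 70.7%, because Gja1 has 10257 annotated exon bases and a principal transcript of 3182.

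**Figure D3:**
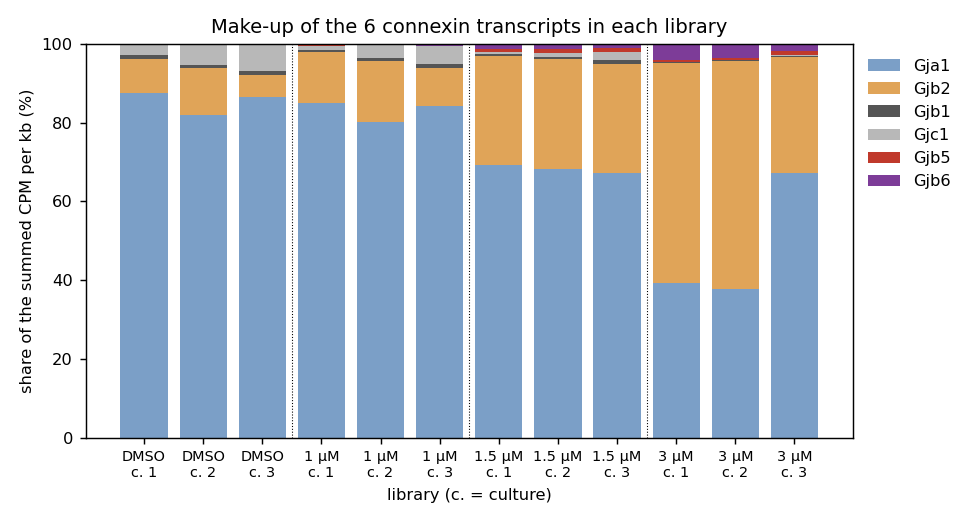
Share of each member in the summed level of the 6 (percent of CPM per kb) in each of the 12 libraries, grouped by dose from left to right. Gja1 makes up most of the sum in DMSO, Gjb2 exceeds it in cultures 1 and 2 at 3 µM but not in culture 3, and the epidermal members become visible from 1.5 µM.

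The ratio of Gjb2 to Gja1, per length, was 0.0970, 0.145 and 0.0646 in the DMSO libraries of cultures 1, 2 and 3 and 1.42, 1.53 and 0.439 at 3 µM. The difference in mean log2 ratio was 3.34, and the groups did not overlap. In an exact two-sided permutation test that shuffled the libraries freely over both groups, the p was 0.10. This is the smallest p that 3 libraries against 3 allow in such a test. After Benjamini-Hochberg adjustment over the 3 ratios tested it was 0.15. The test ignored that each animal gave a library to both groups. Its smallest p lies above the threshold used for calls, so it cannot decide whether the ratio changed. The 1.5 µM libraries had ratios of 0.402, 0.411 and 0.414, so culture 3 at 3 µM was at nearly the ratio of the dose below. The order of Gja1 and Gjb2 at 3 µM thus differed between cultures. That order depends on the transcript length: with all annotated exons as the length, the ratios at 3 µM were 4.57, 4.94 and 1.42, with Gjb2 higher in each culture.

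Within the pair of neighbours on chromosome 14, Gjb6 was 0.286%, 1.07% and 1.89% of Gjb2 per length in DMSO and 7.28%, 6.07% and 6.57% at 3 µM. The difference in mean log2 ratio was 2.99, again with groups that did not overlap and an exact permutation p of 0.10 (adjusted p = 0.15). Unlike the levels of both genes, this ratio at 3 µM was nearly the same in culture 3 as in the others. For the 2 epidermal members, the ratio of Gjb6 to Gjb5 was 0.273 to 2.45 in DMSO and 2.29 to 10.2 at 3 µM. Those ranges overlapped, and the exact permutation p was 0.20 (adjusted p = 0.20). The permutation tests of both ratios also ignored the animals and could not have passed the threshold used for calls, so they decide nothing.

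Set against each other as classes, the mammary members held nearly all of the connexin signal at every dose. Their sum was 84.2, 71.8 and 67.4 CPM per kb in DMSO and 669, 651 and 510 CPM per kb at 3 µM. The epidermal members summed to 0.0986, 0.214 and 0.108 CPM per kb in DMSO and 31.2, 26.9 and 14.6 CPM per kb at 3 µM. As a share of the level of all 6 members the epidermal members were 0.114%, 0.282% and 0.149% in the vehicle libraries. With 1.5 µM they were 1.89%, 2.22% and 1.90%, and with 3 µM 4.46%, 3.96% and 2.78%. The median log2 fold change at 3 µM was 2.14 for the 3 mammary members and 6.97 for the 2 epidermal ones. The classes were not uniform. In the fit over all libraries the mammary member Gjb2 and the epidermal member Gjb5 both changed by 46.1-fold, but that of Gjb5 rests on 6 DMSO reads. Without the library of culture 3 at 3 µM, but with that of culture 3 in DMSO, the log2 fold changes were 5.83 for Gjb2 and 5.27 for Gjb5.

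In the order of levels per length, DMSO cultures had Gja1 first (66.9 ± 7.81 CPM per kb, SD, n = 3), then Gjb2 (6.82 ± 2.54), Gjc1 (3.76 ± 1.26), Gjb1 (0.729 ± 0.161), Gjb5 (0.0756 ± 0.0434) and Gjb6 (0.0648 ± 0.0391). Gjb2 and Gjc1 did not differ beyond their spread, nor did Gjb5 and Gjb6. At 3 µM the order was Gjb2 (313 ± 137), Gja1 (295 ± 51.5), Gjb6 (20.8 ± 9.50), Gjb5 (3.42 ± 0.904), Gjb1 (2.09 ± 0.737) and Gjc1 (1.06 ± 0.936). Here Gjb2 and Gja1 did not differ beyond their spread, and neither did the neighbours among Gjb5, Gjb1 and Gjc1. By these means Gjb6 moved from the last place to the third and Gjc1 from the third place to the last, as in cultures 1 and 2. In culture 3 in DMSO, Gjc1 was above Gjb2 (6.78% against 5.59% of the summed level) and Gjb6 above Gjb5 (0.106% against 0.0432%). At 3 µM in culture 3, Gjc1 was above Gjb1 (0.402% against 0.248%).

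Of 12 other connexin genes examined, 11 were in the table and 2 passed the filter. Those were Gja4 (Cx37) and Gja5 (Cx40), connexins of the endothelium. Gja4 was at 2.0, 8.53 and 7.06 CPM in DMSO and at 0.0784, 1.28 and 2.62 CPM at 3 µM, and Gja5 at 0.400, 3.25 and 2.37 CPM and 0.549, 1.09 and 0.276 CPM. The groups overlapped for both genes. The log2 fold change at 3 µM was -2.11 ± 0.97 for Gja4 (edgeR adjusted p = 0.0865, 0.00191 with the animal as a block and 0.0370 in DESeq2, and -3.06 with 0.0458 without the library of culture 3) and -1.60 ± 0.78 for Gja5 (0.104). Gja5 overlaps other genes in the annotation, so its counts are uncertain. The 4 endothelial markers (Pecam1, Cdh5, Kdr and Tek) were all called lower at 3 µM, with a sum of 217 to 467 CPM in DMSO and 22.8 to 76.9 CPM at 3 µM, none at 0 in all libraries of a group. Their part in the levels of Gja4 and Gja5 was not tested.

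Pannexins form channels of a similar build without docking. Of 3 pannexins in the table, Panx1 and Panx2 were tested. Panx1 was at 17.6, 14.2 and 13.0 CPM in DMSO and 24.8, 27.5 and 13.5 CPM at 3 µM, a log2 fold change of 0.55 ± 0.27 that did not pass (edgeR adjusted p = 0.0980, 0.0154 with the animal as a block and 0.0101 without the library of culture 3). Panx2 had 15, 6 and 11 reads in DMSO and 0, 0 and 3 reads at 3 µM and was called lower (edgeR adjusted p = 0.0125).

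The list of partners examined holds 8 genes for proteins that bind connexins or act on their transport and turnover, and all were tested. At 3 µM, 2 were called higher and 5 lower, with a median log2 fold change of -0.79, against -0.03 over all tested genes. The higher ones were the junction scaffold genes Tjp1 (0.48 ± 0.07, edgeR adjusted p = 0.000350) and Tjp3 (0.57 ± 0.21, 0.0382), whose products link connexins and tight junction proteins to actin. The lower ones were Cav1 (-2.98 ± 0.46), the connexin recycling factor Cnst (-0.87 ± 0.08), the actin binder Dbn1 (-2.12 ± 0.62), the ubiquitin ligase Nedd4 (-0.71 ± 0.11) and Nov (-2.92 ± 0.98), which encodes a secreted protein known to bind Cx43. Src, whose kinase phosphorylates Gja1, was at 0.47 ± 0.19 (edgeR adjusted p = 0.0503) and passed with the animal as a block (0.0233) and in DESeq2 (0.0452), but was at 0.20 without the library of culture 3 (edgeR adjusted p = 0.245). The other 7 partners had the same calls in these 3 fits, and without that library Dbn1 was at -3.09 and Nov at -3.75. At 1 µM edgeR and DESeq2 called 0 of the 8, with 3 at an unadjusted p under 0.05, and the block called 1, Nov (log2 fold change -1.51, adjusted p = 0.0129).

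Over the 12 libraries, log2 levels of the 5 members that rose had Pearson correlations of 0.720 (Gjb1 with Gjb5) to 0.977 (Gjb2 with Gjb6), and those of Gjc1 with the others were -0.577 to -0.795. These are descriptions over n = 12 libraries that share 3 animals and 4 doses. Among tested genes with a mean of at least 50 reads, the genes most like Gja1 were Tchh (r = 0.989), Sars (0.986) and Fam135a (0.984). The genes most like Gjb2 were Mfsd2a (0.992), Fgfbp1 (0.991) and Eif4a1 (0.990), and those most like Gjb1 were Mgat2 (0.946), Prom2 (0.934) and Trappc6a (0.932). For Gjb5 they were Papl (0.992), Spink5 (0.987) and Ereg (0.986), and for Gjb6 Nop2 (0.993), Nop16 (0.992) and Dimt1 (0.992). For Gjc1 they were Bicc1 (0.993), Mgat3 (0.992) and Mmp23 (0.991).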

How the data were processed

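The authors deposited raw read counts per Ensembl gene, whole numbers for 12 libraries of polyadenylated RNA made with a stranded kit per the labels' protocols. The submitters' processing notes name TopHat2 2.1, Bowtie 1.1.0, HTSeq and DESeq2 and the build GRCm38/mm10. Whether counting used the strand is not given in the sources used here. A deposited log2 table equals a rescaling of the counts and was not used. All 12 columns were matched to samples by name.

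Genes were filtered with filterByExpr, scaled by TMM and tested with edgeR 4.0.16 in R 4.3.3 (glmQLFit, robust, and glmQLFTest, 1 mean per group over 12 libraries, two-sided, Benjamini-Hochberg over 15316 genes, threshold 0.05). Alternatives were DESeq2 1.42.0, library size scaling, no filter, the animal as a replicate block, fits of only the groups compared and leaving out each library. For genes other than the members, leaving out culture 3 at 3 µM was chosen after seeing the data, as was the length over all annotated exons. CPM used TMM-scaled library sizes, and per-length levels the longest principal transcript of GENCODE M21. Of the deposited identifiers, 24902 are in that release. The scripts were tested on simulated data.

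Replicate numbers mark animals, per the series' design text. Deviations from group means correlated at 0.177 to 0.840 (median 0.505) over 18 pairs of libraries with the same number. Libraries with the same number were thus alike. The median over 36 pairs with different numbers was -0.212. Deviations from a mean of 3 libraries sum to 0, so this negative value goes with the positive one and is not separate evidence.

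The genes named are the members, other connexins, the pannexins, a list of connexin partners and, for each member, the 3 tested genes most correlated with it over the libraries with at least 50 counts on average. The members and lists were chosen with earlier results of these data known. Marker genes stand only beside a member's result, and some genes of these lists are not reported here.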

Additional observations from a re-analysis of the deposited data

How the results depend on the processing

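The rises of Gja1, Gjb2, Gjb5 and Gjb6 at 3 µM kept their direction and their call under all alternatives run, with log2 fold changes of 1.97 to 2.24, 5.22 to 5.83, 5.11 to 5.82 and 7.89 to 8.73 over the fits that left out 1 library. Near 0, signs turned. At 1 µM Gjb1 ranged from -0.340 to 0.0743 over the fits without 1 library (above 0 without DMSO replicate 1, and at 0.0588 without 1 µM replicate 2), and Gjc1 from -0.685 to 0.0539 (above 0 without 1 µM replicate 1). Depth limits Gjb5, Gjb6 and Gjb1 most, with 1 to 32 reads in a DMSO library. Where a fit left a group with 2 libraries, the spread was pooled over all groups.

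With the replicate block, all genes called numbered 859 at 1 µM (37 without it), 7147 at 1.5 µM (4177), 3351 from 1 to 1.5 µM (831) and 7149 from 1.5 to 3 µM (4544). The block added Gjb2 at 1 µM and Gjc1 at 1.5 and 3 µM and from 1.5 to 3 µM, and changed no other call of a member. DESeq2 called 485 genes at 1 µM and 1646 from 1 to 1.5 µM. With only the compared groups fitted, 0 genes were called at 1 µM and 2852 from 1.5 to 3 µM, and with no filter 494 from 1 to 1.5 µM. Leaving out 1 library gave 3 to 50 genes at 1 µM, 2462 to 5085 at 1.5 µM, 7500 to 9391 at 3 µM, 135 to 1508 from 1 to 1.5 µM, 2962 to 5682 from 1.5 to 3 µM and 7599 to 9062 for the slope. The lowest counts came without 1 µM replicate 2, DMSO replicate 2, 1 µM replicate 2 and 3 µM replicate 2 at 1 µM, at 1.5 µM, from 1 to 1.5 µM and from 1.5 to 3 µM. Library size scaling moved the median of all genes at 3 µM to -0.23, with 3395 called higher and 5404 lower (4575 and 4239 with TMM). The causes were not tested.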
